A study of Homo sapiens with 6 samples.

Results

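The VEGF-family ligands PGF, VEGFA, VEGFB and VEGFC, the receptor tyrosine kinases FLT1 and KDR and the co-receptors NRP1 and NRP2 were followed as 8 of the 16279 genes in the count and FPKM tables, chosen by symbol. The choice was made with earlier results of these data known. In cells given chemerin the PGF transcript fell to 0.436 of its untreated level, and PGF was the only member past the thresholds for a change. VEGFA, VEGFC and NRP1 spread widely among the treated libraries, VEGFB, KDR and NRP2 stayed near their untreated levels, and FLT1 was at a few counts per library. The cells were 12Z, an established line of human endometriotic epithelial cells, and no other line was sequenced. The NC libraries came from cells with no treatment (n = 3), and the rhChemerin libraries from cells given recombinant human chemerin (n = 3), per the methods the active form chem157S at 10 ng/mL for 48 h. Chemerin is a secreted chemoattractant and adipokine. The labels call the libraries of a group biological replicates without saying whether they came from separate cultures, so that the p-values measure the spread between these libraries.

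VEGF-family ligands are secreted dimers that drive the growth of blood and lymphatic vessels, and endometriotic lesions depend on new vessels. VEGFA binds both FLT1 (VEGFR1) and KDR (VEGFR2), of which KDR carries most of the mitogenic signal in endothelial cells. PGF (placental growth factor) and VEGFB bind FLT1 but not KDR, and VEGFC acts mainly on FLT4 (VEGFR3) and lymphatic vessels. NRP1 and NRP2 lack a kinase, hold VEGF ligands at the cell surface and also serve as receptors of class 3 semaphorins, with plexins as partners. In bulk RNA, fewer cells of a type and less RNA per cell cannot be told apart.

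Each library held 35430881 to 38341643 counts on genes, so that 1 count was at most 0.0282 CPM (counts scaled to library depth). The library rhChemerin 3 stood apart: its mean correlation of log2 CPM with the other libraries, across genes, was 0.959, against 0.977 to 0.979 for the other 5. The keratins KRT8 and KRT18 reached 748 to 966 and 555 to 640 FPKM (fragments per kilobase of gene length, scaled by library depth). The epithelial markers EPCAM (0.387 to 0.807 FPKM in NC, 0.125 to 0.277 in rhChemerin) and CDH1 (0.237 to 0.381 and 0.0859 to 0.201) were near 0 and lower in the treated libraries without overlap, and the collagen COL1A1, a stromal marker, stood at 728 to 1165 FPKM. The 10 epithelial markers summed to 2625 to 3095 CPM in NC and 3140 to 3608 CPM in rhChemerin, a sum carried by KRT8, KRT18 and KRT19. Of the 9 epithelial markers tested 5 had a negative and 4 a positive log2 fold change, with a median of -0.57. In TMM-scaled CPM 3 of the 9 were below without overlap and 2, KRT8 and KRT19, above. Of all tested genes 16.0% were below and 16.5% above, and of those with a mean under 1 FPKM, as EPCAM and CDH1, 25.9% and 3.95%. The 8 stromal markers summed to 9026 to 11750 CPM in NC and 7315 to 12780 CPM in rhChemerin. The 10 endothelial markers summed to 8.49 to 15.8 CPM in NC and 8.87 to 18.2 CPM in rhChemerin, most of it from TIE1 and VWF. TIE1 gave 102, 248 and 440 counts in NC and 232, 518 and 483 in rhChemerin, and VWF 159, 131 and 112 in NC and 64, 23 and 13 in rhChemerin, with PECAM1 at no more than 0.0386 FPKM and TEK at 0 counts in 5 of the 6 libraries. The 5 immune markers in the table summed to 192 to 274 and 170 to 236 CPM, nearly all CD14 and CD68, with the leukocyte marker PTPRC at no more than 0.0535 FPKM. No gene of these marker lists passed both thresholds in edgeR, which called 0.0301% of all tested genes. VWF and CD14 were lower in DESeq2, which called 2.73%. The part of these markers in the results on the VEGF family was not tested.

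PGF lies on chromosome 14 from 74941834 to 74955784 on the minus strand (GRCh38, GENCODE release 29), and no exon of it overlaps another gene. Its level was 16.9, 18.8 and 20.2 FPKM in the NC libraries, from 1045, 1202 and 1267 counts. In the rhChemerin libraries it was 7.48, 7.79 and 6.96 FPKM, from 500, 493 and 454 counts. All 3 treated libraries lay below all 3 untreated ones, and the treated libraries were close to each other. The mean was 18.6 ± 1.63 FPKM (SD, n = 3) in NC and 7.41 ± 0.418 FPKM (SD, n = 3) in rhChemerin.

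The log2 fold change of PGF was -1.20 (SE 0.11, adjusted p = 0.0460 in the quasi-likelihood test of edgeR, Benjamini-Hochberg over all 13311 tested genes), and its p was the smallest of the genes tested. A gene was called where its adjusted p was under 0.05 and its absolute log2 fold change above 1, and 4 of 13311 genes, or 0.0301%, met both. Of the 8 members 7 passed the filter on low counts, and 1 of them, PGF, was called. DESeq2, the tool of the study, gave PGF a log2 fold change of -1.20 and an adjusted p of 1.00e-15, and called 2.73% of 14382 genes but no other member. Without any 1 library the log2 fold change of PGF stayed between -1.26 and -1.14. In TMM-scaled CPM, not the FPKM given above, PGF was at 0.420, 0.450 and 0.436 of the NC mean in rhChemerin 1, 2 and 3. The adjusted p in edgeR did not pass without NC 1 (0.147), NC 2 (0.355), NC 3 (0.249) or rhChemerin 2 (0.259), and passed without rhChemerin 1 (0.0266) or rhChemerin 3 (0.0196). Over all alternatives it ranged from 1.00e-15 to 0.355.

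**Figure D1:**
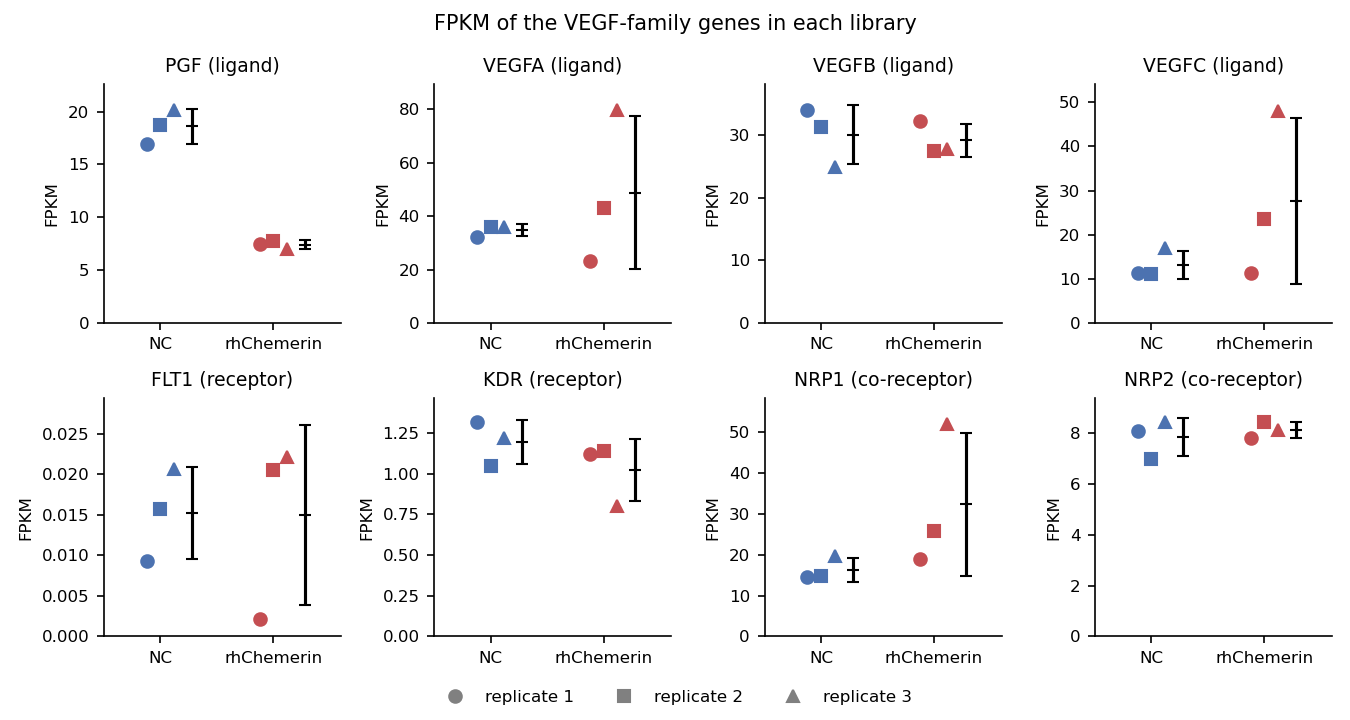
FPKM of the 8 VEGF-family genes by library, with NC and rhChemerin on the x axis of each panel and FPKM on a linear y axis that starts at 0, scaled for each gene. Points are libraries and bars are the mean ± SD (n = 3), and the 3 treated libraries of PGF sit between 6.96 and 7.79, below the 3 untreated ones at 16.9 to 20.2.

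The sequence upstream of PGF is shown beside that of VEGFC, because the first fell evenly in the treated libraries and the second spread most among them of the members that passed the filter on low counts. The windows are the 250 bases before the gene start from RefSeq (GRCh38.p14), which held entries for 6 of the 8 members and none for VEGFA and NRP1. Capitals mark the GC box GGGCGG, bound by SP1, and the hypoxia response cores ACGTG and GCGTG, bound by HIF factors, on either strand. The PGF window is chr14:74955765-74956014 and the VEGFC window chr4:176792923-176793172, both on the minus strand. These RefSeq starts differ from the GENCODE gene starts given in the text, and the distances below count from the RefSeq starts.
PGF: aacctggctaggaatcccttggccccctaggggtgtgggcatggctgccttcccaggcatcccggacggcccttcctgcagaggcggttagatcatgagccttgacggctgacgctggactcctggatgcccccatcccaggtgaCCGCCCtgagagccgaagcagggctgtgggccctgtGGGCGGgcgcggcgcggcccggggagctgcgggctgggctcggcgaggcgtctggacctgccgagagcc
VEGFC: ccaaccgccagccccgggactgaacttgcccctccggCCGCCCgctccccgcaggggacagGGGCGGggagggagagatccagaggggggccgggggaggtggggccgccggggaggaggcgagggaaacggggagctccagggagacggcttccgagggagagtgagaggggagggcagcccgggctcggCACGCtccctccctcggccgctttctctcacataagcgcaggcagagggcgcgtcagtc
The PGF window held GC boxes at 105 and 69 bases before the start and no hypoxia core. The VEGFC window held GC boxes at 213 and 189 bases and a hypoxia core at 59 bases before the start. Of the other windows, those of VEGFB (at 61 bases) and FLT1 (at 206 bases) held a hypoxia core, and those of KDR and NRP2 did not. A hypoxia core stood in 43.1% and a GC box in 42.3% of the 27305 RefSeq promoters of this length, so that both motifs are common. The metal response core TGCACNC or TGCGCNC, bound by MTF1 (24.7% of promoters), and the AP-1 site TGANTCA (6.60%) were in none of the 6 windows. These matches describe the letters only.

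VEGFA, the main angiogenic ligand, lies on chromosome 6 from 43770184 to 43786487. It was at 32.1, 36.0 and 36.1 FPKM in NC and 23.2, 43.2 and 79.8 FPKM in rhChemerin. One treated library was below all untreated ones and the others above them. The log2 fold change was 0.65 (SE 0.42, adjusted p = 0.373, edgeR), and without rhChemerin 3 it was 0.02. Without rhChemerin 1 it was 0.99 (adjusted p = 0.0585) in edgeR and 1.00 in DESeq2, where it passed both thresholds (adjusted p = 0.00182). VEGFC, the lymphatic growth factor on chromosome 4 from 176683538 to 176792727, was at 11.4, 11.1 and 16.9 FPKM in NC and 11.2, 23.6 and 48.1 FPKM in rhChemerin. The lowest treated library was level with the untreated ones and the others were above them. Its log2 fold change was 1.24 (SE 0.51, adjusted p = 0.206, edgeR), and without rhChemerin 3 it was 0.49 (adjusted p = 0.375). Without rhChemerin 1 it was 1.62 and passed the test (adjusted p = 0.0417, edgeR), and it was 1.63 in DESeq2 (adjusted p = 2.45e-05). VEGFB, on chromosome 11 from 64234538 to 64238793, was at 34.0, 31.4 and 24.9 FPKM in NC and 32.2, 27.5 and 27.9 FPKM in rhChemerin. The groups overlapped, with a log2 fold change of 0.08 (SE 0.13, adjusted p = 0.722, edgeR) that took the other sign in 5 alternatives.

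VEGFA, VEGFC and NRP1 differed widely among the 3 treated libraries. The highest was 3.82 times the lowest for VEGFA in TMM-scaled CPM, 4.78 times for VEGFC and 3.05 times for NRP1, and in each the order was rhChemerin 1, 2 and 3. Of 11031 genes with a mean of at least 1 FPKM, 1.73%, 1.11% and 2.86% had a ratio at least this high, and the median ratio was 1.27. PGF had a ratio of 1.07 among the treated libraries, and 91.3% of the genes had at least that. Among the NC libraries the ratios were 1.11 for VEGFA, 1.54 for VEGFC, 1.35 for NRP1 and 1.18 for PGF.

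**Figure D2:**
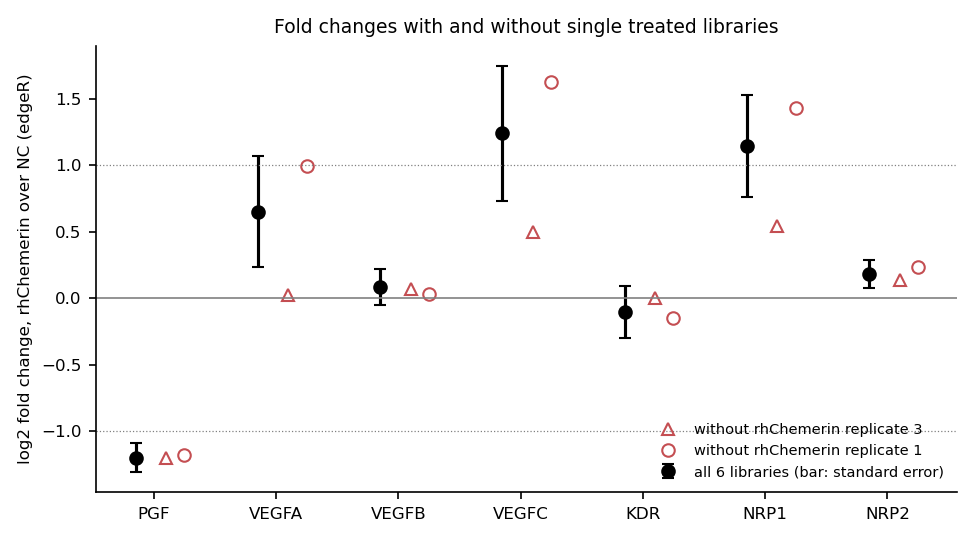
Log2 fold change of rhChemerin over NC (edgeR) for the 7 tested members, for all 6 libraries (filled points, bars the standard error), without rhChemerin 3 (triangles) and without rhChemerin 1 (open circles), with dotted lines at 1 and -1. PGF stays near -1.20 in each setting, and VEGFA moves from 0.65 to 0.02 without rhChemerin 3.

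The 4 ligands were added in FPKM to give a pool for each library, of which PGF made up 17.9%, 19.3% and 20.6% in NC. In rhChemerin the PGF share was 10.1%, 7.63% and 4.28%. The groups did not overlap, and the mean share moved from 19.2% to 7.33%, a difference of -11.9 percentage points (two-sided, exact, over libraries: permutation p = 0.10, the lowest value possible with 3 against 3). The log2 ratio of PGF to VEGFA was -0.93, -0.94 and -0.84 in NC and -1.64, -2.47 and -3.52 in rhChemerin. The treated ratios were lower without overlap, by 1.64 on the log2 scale in the mean (difference -1.64, exact permutation p = 0.10), and without rhChemerin 3 the difference was -1.15. The shares of VEGFA were 34.0%, 37.1% and 36.8% in NC and 31.3%, 42.3% and 49.0% in rhChemerin, and those of VEGFC 12.1%, 11.4% and 17.2% and 15.1%, 23.2% and 29.6%. The summed pool was 94.5, 97.2 and 98.0 FPKM in NC and 74.1, 102 and 163 FPKM in rhChemerin, so that the treated libraries surrounded the untreated ones. Adjusted over the 4 ratios tested, which include those of the receptors, p was 0.133 for the PGF share and for the PGF to VEGFA ratio in this exact permutation test.

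**Figure D3:**
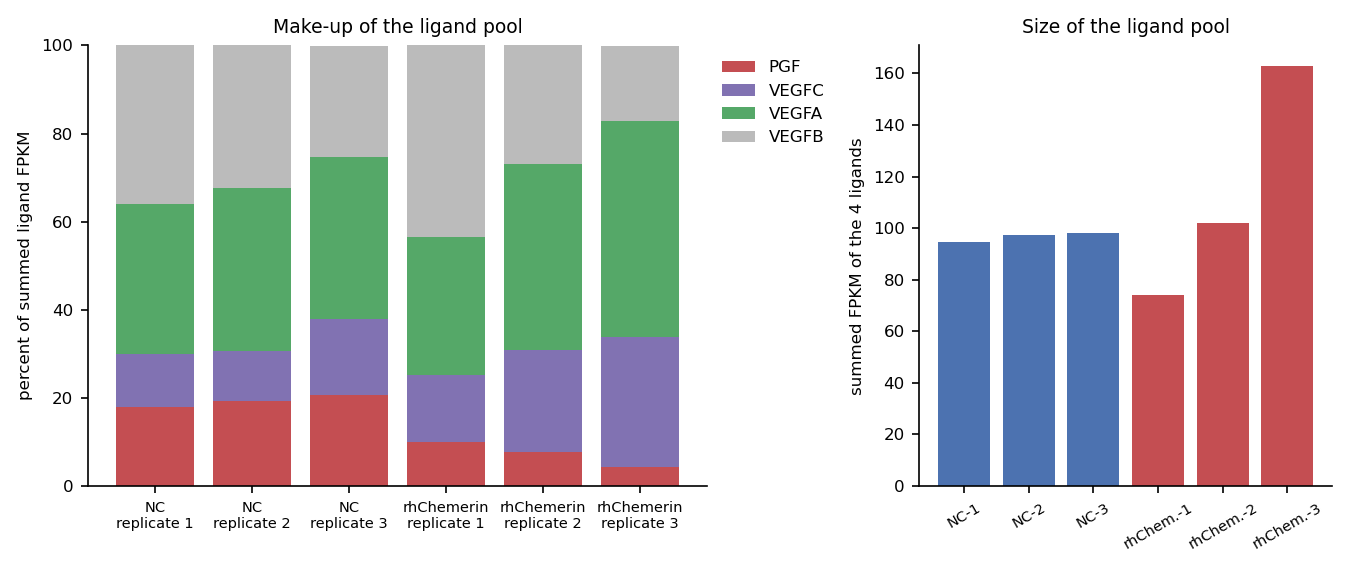
Make-up of the ligand pool in percent of the summed FPKM of PGF, VEGFA, VEGFB and VEGFC (left, stacked bars by library) and the size of that pool in FPKM (right). PGF takes 17.9% to 20.6% in the untreated libraries and 4.28% to 10.1% in the treated ones, and the pool runs from 74.1 to 163 FPKM.

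KDR, on chromosome 4 from 55078259 to 55125595, was low, at 1.32, 1.05 and 1.22 FPKM in NC and 1.12, 1.14 and 0.802 FPKM in rhChemerin. The groups overlapped, with a log2 fold change of -0.10 (SE 0.19, adjusted p = 0.765, edgeR). FLT1, the receptor shared by PGF, VEGFA and VEGFB, lies on chromosome 13 from 28300344 to 28495145 and gave 4, 7 and 9 counts in NC and 1, 9 and 10 in rhChemerin. Both groups summed to 20 counts (95% exact Poisson interval 12.2 to 30.9, counting error only), so that only a large difference could have been seen. FLT1 was removed by the filter on low counts. DESeq2, which tested it, gave an adjusted p of 0.962. The log2 ratio of FLT1 to KDR differed by -0.31 between the groups (exact permutation p = 1, n = 3 against 3), and by 0.87 without rhChemerin 1, where FLT1 had 1 count. Counts per gene do not separate the soluble from the membrane form of FLT1, or the splice forms of VEGFA and PGF.

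NRP1 lies on chromosome 10 from 33177492 to 33336262 on the minus strand and shares 561 exon bases with an antisense gene. It was at 14.5, 14.9 and 19.8 FPKM in NC and 19.0, 25.9 and 52.2 FPKM in rhChemerin. The upper treated libraries were above all untreated ones, and the lowest was close to the highest NC library. The log2 fold change was 1.14 (SE 0.39, adjusted p = 0.155, edgeR). Without rhChemerin 3 it was 0.54 (adjusted p = 0.120), and without rhChemerin 1 it was 1.43 and passed the test (adjusted p = 0.0442, edgeR). In DESeq2 the adjusted p was 0.152 with all libraries and 0.0279 without rhChemerin 3, there with a log2 fold change of 0.55. DESeq2 called NRP1 higher without rhChemerin 1 (adjusted p = 5.78e-05), rhChemerin 2 (0.0392) or NC 3 (0.0453), and not without NC 1 (0.132) or NC 2 (0.186). VEGFA shares 188 exon bases and NRP2 147 with antisense genes, and as the strand setting of the counting is not given in the sources used here, reads of these genes and their antisense partners cannot be told apart. NRP2, on chromosome 2 from 205681990 to 205798133, was at 8.09, 6.99 and 8.45 FPKM in NC and 7.81, 8.45 and 8.13 FPKM in rhChemerin, with overlap. Its log2 fold change was 0.18 (SE 0.10, adjusted p = 0.324, edgeR). The log2 ratio of NRP1 to NRP2 was 0.84, 1.09 and 1.23 in NC and 1.29, 1.61 and 2.68 in rhChemerin (difference 0.81, exact permutation p = 0.10, adjusted 0.133), and without rhChemerin 3 the difference was 0.40.

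In TMM-scaled CPM the groups did not overlap for PGF, which was lower, and for NRP1, which was higher by a margin of 115.8 against 114.8 CPM and overlapped in FPKM. Of all tested genes 16.0% were below without overlap and 16.5% above, so that 1 of the 7 tested members in each direction is near those shares.

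Per gene length, the order of NC means was VEGFA (34.7 ± 2.25 FPKM), VEGFB (30.1 ± 4.71), PGF (18.6 ± 1.63), NRP1 (16.4 ± 2.94), VEGFC (13.1 ± 3.27), NRP2 (7.84 ± 0.759), KDR (1.20 ± 0.135) and FLT1 (0.0153 ± 0.00568), each the mean ± SD of 3 libraries. The ranges of neighbours overlapped for VEGFA and VEGFB, for PGF and NRP1, and for NRP1 and VEGFC, and did not for the other neighbours. In rhChemerin the order was VEGFA (48.7 ± 28.7), NRP1 (32.4 ± 17.5), VEGFB (29.2 ± 2.64), VEGFC (27.6 ± 18.8), NRP2 (8.13 ± 0.322), PGF (7.41 ± 0.418), KDR (1.02 ± 0.191) and FLT1 (0.0149 ± 0.0111). There the ranges of VEGFA, NRP1, VEGFB and VEGFC overlapped, and those of the later neighbours did not. PGF thus stood above NRP1, VEGFC and NRP2 in NC and below all of them in rhChemerin. The order depends on the length used: the deposited FPKM of NRP2 rest on 16272 bases, and with its longest coding transcript of 6662 bases its NC mean was 19.2, above PGF at 16.8 and NRP1 at 16.9. On that length VEGFB (39.4) also came before VEGFA (36.6).

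Among the 11031 genes with a mean of at least 1 FPKM, those most like PGF over the 6 libraries in log2 CPM were SLC5A3 (Pearson's r 0.9989), RBPMS2 (0.9969), MOGS (0.9940), FRS3 (0.9933) and STARD3 (0.9931). SLC5A3, a myo-inositol transporter, was at 11.6, 12.3 and 12.5 FPKM in NC and 7.48, 7.40 and 6.87 FPKM in rhChemerin. Its log2 fold change was -0.61 (adjusted p = 0.0574, edgeR), so that the pattern was like that of PGF and the size smaller. The closest genes to VEGFA were YARS2 (0.9981), TMEM87B (0.9980) and CTBP2 (0.9972), and those to VEGFC were the semaphorin receptor PLXNA1 (0.9981), HGS (0.9980) and ELK3 (0.9974). ELK3, a transcription factor, ran from 16.9 to 21.1 FPKM in NC and was at 15.6, 25.7 and 39.99 FPKM in rhChemerin 1, 2 and 3. These values of r include the difference between the groups and describe 6 libraries.

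None of the other lists held a gene past both thresholds in edgeR, which called only 0.0301% of all tested genes. Levels of the list genes are given in FPKM, and overlap between the groups was judged in TMM-scaled CPM. The median log2 fold change of all tested genes was 0.01, and -0.12 with library size only. Of the 9 other VEGF and PDGF ligands and receptors 7 were tested, with a median of -0.11. Without overlap, 1 of the 7 was below and 1 above, where 16.0% and 16.5% of all tested genes were. PDGFB, a growth factor of pericytes, was at 13.9, 11.7 and 10.4 FPKM in NC and 8.90, 6.64 and 4.13 FPKM in rhChemerin, without overlap (log2 fold change -0.76, adjusted p = 0.137, edgeR). Its receptor PDGFRB was at 21.2, 20.9 and 16.6 FPKM in NC and 19.8, 10.9 and 5.52 FPKM in rhChemerin. PDGFRA was at 1.37 to 1.74 FPKM in NC and 2.08 to 3.10 in rhChemerin (adjusted p = 0.124, edgeR), PDGFC at 3.98 to 5.22 and 3.69 to 4.27, and PDGFRL at 2.86 to 4.66 and 1.40 to 3.29. VEGFD and FLT4, chosen here after their values were seen, had no more than 6 and 20 counts in a library.

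Of the 12 class 3 semaphorins and plexins, the neuropilin partners, 10 were tested. Their median was 0.19 on the log2 scale, and it was -0.08 without rhChemerin 3. SEMA3F, a ligand that binds NRP2, was at 4.77, 5.83 and 6.51 FPKM in NC and 2.84, 2.94 and 1.78 FPKM in rhChemerin. The groups did not overlap, the log2 fold change was -1.06 (SE 0.19, adjusted p = 0.0752, edgeR), and DESeq2 called it lower. PLXND1 (15.3 to 17.4 FPKM against 5.75 to 11.4) and SEMA3B (35.9 to 42.1 against 13.8 to 31.6) were also below without overlap. SEMA3A (2.30 to 2.71 FPKM against 3.35 to 5.15) and SEMA3C (8.88 to 10.6 against 10.99 to 15.4), both named after their values were seen, were above without overlap. In all, 3 of the 10 tested were below and 2 above, where 16.0% and 16.5% of all tested genes were. PLXNA1 was at 21.9 to 24.4 FPKM in NC and 21.6 to 27.0 in rhChemerin, and PLXNA3 at up to 13.5 and up to 12.3.

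Of the 13 genes of hypoxia sensing and of regulation of VEGF-family ligand genes 12 were tested, with a median of 0.01. HIF1A, the oxygen-regulated subunit of HIF-1, was at 154, 145 and 168 FPKM in NC and 113, 144 and 157 FPKM in rhChemerin (log2 fold change -0.03, adjusted p = 0.921, edgeR). EPAS1, its paralog HIF-2α, ran from 80.0 to 108 FPKM in NC and 68.5 to 85.1 in rhChemerin, SP1 from 19.6 to 24.9 and 19.8 to 25.3, and the prolyl hydroxylase EGLN2 from 38.0 to 38.7 and 41.8 to 46.0. EGLN3, named after its values were seen, was called lower by DESeq2, at 0.542 to 1.19 FPKM in NC and 0.129 to 0.424 in rhChemerin.

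Of the 19 other secreted regulators of angiogenesis 17 were tested, with a median of -0.05, and of -0.27 without rhChemerin 3. Without overlap, 4 of the 17 were below and 1 above, where 16.0% and 16.5% of all tested genes were. The matricellular CCN1 was at 369 to 479 FPKM in NC and 276 to 329 in rhChemerin, apart in FPKM but with overlap in TMM-scaled CPM. CCN2 was at 48.7 to 58.5 and 35.2 to 63.4 FPKM, SPARC at 1060 to 1188 and 767 to 1347, and THBS2, an inhibitor of vessel growth, at 568 to 717 and 391 to 634. VASH2, a tubulin carboxypeptidase of the vasohibin family, was at 1.38 to 1.54 FPKM in NC and 0.613 to 0.939 in rhChemerin (log2 fold change -0.76, adjusted p = 0.118, edgeR). Some regulators were high in rhChemerin 3, the library in which VEGFA, VEGFC and NRP1 were highest, and these were named after their values were seen. ANGPTL4 was at 0.346, 1.53 and 2.12 FPKM in NC and 0.534, 1.79 and 62.4 FPKM in rhChemerin, with a log2 fold change of 4.23 (adjusted p = 0.201, edgeR) that was -0.11 without that library. CXCL8 was at 1.24 to 2.91 FPKM in NC and 0.349, 2.72 and 21.5 FPKM in rhChemerin. ANGPT1, called higher by DESeq2, was at 0.162 to 0.206 FPKM in NC and 0.209, 0.372 and 1.90 FPKM in rhChemerin. COL18A1 (40.7 to 53.4 FPKM in NC, 22.6 to 36.8 in rhChemerin), VASH1 (13.6 to 16.4 and 5.49 to 12.85) and SERPINF1 (0.520 to 1.21 and 0.159 to 0.449) were below without overlap. These were also named after their values were seen.

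The KEGG pathway of VEGF signaling, as the deposited tables annotate it, held 56 genes with KDR and VEGFA among them, of which 51 were tested with a median of 0.05. Without overlap, 6 of the 51 were below and 9 above, where 16.0% and 16.5% of all tested genes were. SHC2, an adaptor of receptor tyrosine kinases, was at 4.42, 4.84 and 3.57 FPKM in NC and 1.95, 1.54 and 1.03 FPKM in rhChemerin, without overlap (log2 fold change -1.39, SE 0.24, adjusted p = 0.0707, edgeR). The abundant HSPB1 (679 to 754 FPKM in NC, 559 to 823 in rhChemerin), RAC1 (209 to 218 and 215 to 242), MAP2K2 (70.8 to 75.3 and 63.6 to 70.1) and AKT1 (66.4 to 71.5 and 64.8 to 67.3) did not pass the test. DESeq2 called SHC2 and PLA2G4C lower in this list. Of the 115 distinct genes in these 5 lists and the members together, 102 were tested, 1 was called in edgeR, PGF, and 6 in DESeq2. Among all genes tested the share called was 0.0301% in edgeR and 2.73% in DESeq2.

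**Figure D4:**
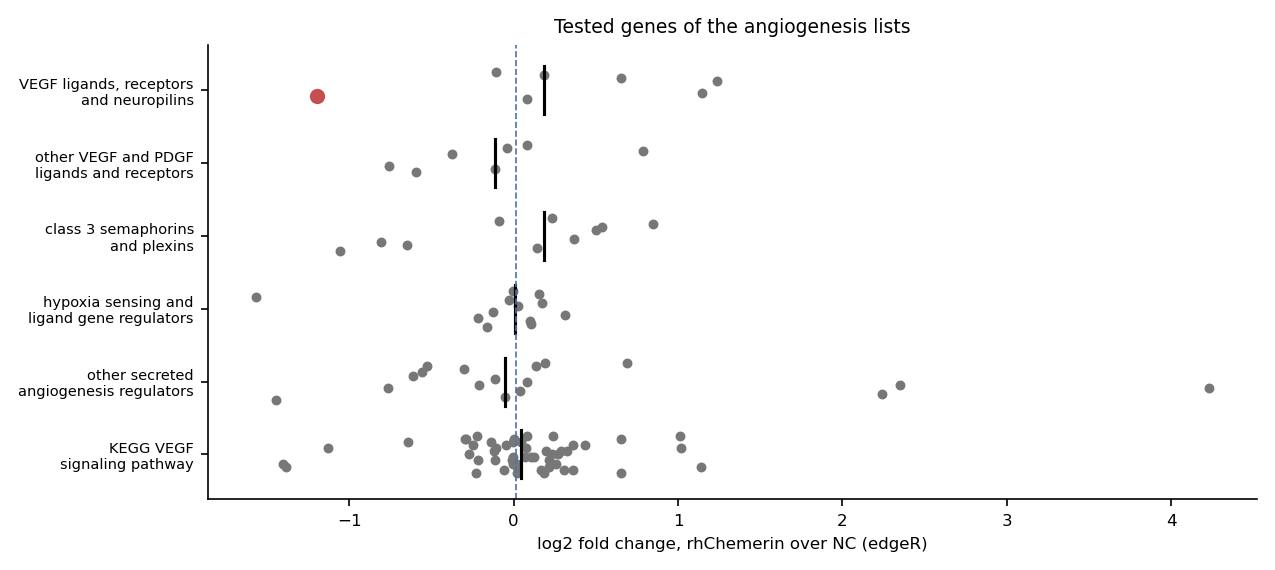
Log2 fold change (edgeR) of the tested genes in each list, one point per gene and PGF in red, with the list median as a black bar and the median of all tested genes (0.01) as a dashed line. PGF is the lowest member at -1.20, and the list medians run from -0.11 to 0.19.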

How the data were processed

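RNA of 6 libraries was measured by RNA-seq with reads of 150 bases. Per the labels, the authors used fastp, HISAT2, HTSeq and DESeq2 with the build GRCh38.p13. They deposited read counts per gene without normalization and FPKM of the same 16279 genes. Here counts were tested in R 4.3.3 with edgeR 4.0.16 (TMM, filter on low counts, quasi-likelihood test, Benjamini-Hochberg over 13311 genes). Alternatives were DESeq2 1.42.0 and limma 3.58.1 (on the log2 of FPKM plus 1 or plus 0.1) beside other scaling, no filter, a replicate block and leaving out each library. DESeq2 with a library left out and the transcript length were added after the data were seen. The tests were tried on simulated data. Log2 CPM used a prior count of 2. Members and lists were chosen with earlier results of these data known. Named in the text are the members, list genes past both thresholds, otherwise the 4 most abundant and the one with the smallest p of a list, and the genes most correlated with PGF (5), VEGFA and VEGFC (3 each).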

Additional observations from a re-analysis of the deposited data

How the results depend on the processing

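The log2 fold change of PGF was -1.24 with upper quartile factors (adjusted p = 0.0565, edgeR) and -1.20 with the replicate block (adjusted p = 0.0580, edgeR), so that PGF was not called in either and 0 members were past both thresholds. Samples with the same number deviated from their group means with correlations of 0.24, 0.00 and 0.25. Those with different numbers did so with -0.31 to 0.11, so that 0.24 and 0.25 were the highest. The labels do not call the numbers pairs, and the main test did not use them. With the replicate block the log2 fold change was 0.44 for VEGFA (adjusted p = 0.395, edgeR) and 0.996 for NRP1 (adjusted p = 0.0814, edgeR). With 1 library left out the log2 fold change of PGF ran from -1.26 to -1.14 and the members past both thresholds from 0 to 3 in edgeR and from 1 to 4 in DESeq2. Members above without overlap numbered 0 in FPKM and 1 to 4 with a library left out. The FLT1 to KDR difference ran from -1.05 to 0.87 with a library left out, the latter without rhChemerin 1. Genes of the lists called lower numbered 5 and higher 1 in DESeq2, and 0 to 7 and 0 to 2 with a library left out in edgeR. The shares over all tested genes were not computed in FPKM or with a library left out. These counts of members and list genes are therefore not read as results about them. VEGFB reversed to -0.044 with library size only, to -0.035 in limma on either scale (-0.0346 and -0.0354), and to -0.036 in edgeR and -0.0379 in DESeq2 without NC 3, within a range up to 0.191 with a library left out. KDR ran from -0.195 to 0.0036 in edgeR with a library left out, and was -0.226 with library size only. The value of 0.0036 in edgeR, and 0.0078 in DESeq2, came without rhChemerin 3. The median of the other VEGF and PDGF list ran from -0.434 without rhChemerin 1 to 0.0302 without NC 1, and was 0.02 without rhChemerin 2, and that of the semaphorins was -0.0844 without rhChemerin 3. The causes were not tested. The few counts of FLT1 limit what can be said of it.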
